A study of Mus musculus with 18 samples.

Results

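The aldehyde dehydrogenase (Aldh) and aldo-keto reductase (Akr) genes of the mouse were examined in fasted liver. Members were the protein-coding genes whose symbol is Aldh or Akr followed by a number, except Aldh1a1, Aldh4a1, Aldh18a1 and Akr1d1, which left 34 of the 38 genes of that form, among 54532 genes listed. Of the 34, 18 were Aldh genes, 8 belonged to the Akr1c cluster of chromosome 13 and 8 were other Akr genes. All 18 mice were male C57BL/6J wild-type mice, with 1 RNA-seq library per mouse, and their diets began at 4 wk of age. In the first experiment, 5 mice ate a control diet (Ctrl) and 5 a diet with 99% less riboflavin (B2D) for 4 wk, without fenofibrate. In the second, the control diet of 4 mice (Ctrl+FF) and the deficient diet of 4 others (B2D+FF) lasted 9 wk, and these mice had fenofibrate, an agonist of the nuclear receptor PPARα, at 300 mg/kg by daily gavage from week 7 to week 9, with the last dose 2 hr before harvest. Mice are numbered from 1 within each group.

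Aldehyde dehydrogenases oxidize aldehydes to acids with NAD or NADP, and aldo-keto reductases reduce aldehydes and ketones, many of them steroids, with NADPH, while some run the reaction in the other direction. Neither family carries the flavin cofactors FAD or FMN that are made from riboflavin. In liver they clear aldehydes from alcohol, lipid peroxidation and fatty alcohols, finish steps in the breakdown of lysine, valine and tryptophan, supply a step of carnitine synthesis, and inactivate or interconvert steroid hormones.

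Levels are given as FPKM, the fragments counted on a gene per kilobase of its length after scaling for depth, which allows comparison between genes within 1 table. The libraries held 15320729 to 21898502 reads on genes. The tables of the experiments without and with fenofibrate were scaled apart, so levels are compared only within each. Groups were compared with limma on log2(FPKM + 1), over all genes with a mean of at least 0.5 FPKM, and a gene was called at a Benjamini-Hochberg adjusted p under 0.05 over all genes tested. All differences are deficient diet minus control diet on that log2(FPKM + 1) scale, which understates changes of low genes. RNA came from whole liver, in which fewer cells of a type and less RNA per cell cannot be told apart. Hepatocyte markers (Alb, Apoa1, Ttr, Cps1, Tat and Serpina1a) summed to 18881.5 FPKM or more in every library. The summed levels of the hepatocyte, Kupffer, endothelial, stellate, cholangiocyte and lymphocyte lists overlapped between diets in both experiments, except that the lymphocyte list was 0.702 to 1.17 FPKM in Ctrl+FF and 0.108 to 0.660 FPKM in B2D+FF. None of the markers was at 0 in every library of a group. The neutrophil list (S100a8, S100a9, Retnlg) summed to 0.431 to 1.99 FPKM in Ctrl and 1.64 to 5.80 FPKM in B2D, and to 2.18 to 3.70 FPKM in Ctrl+FF and 3.0 to 13.4 FPKM in B2D+FF. Of all these markers, Clec4f, a Kupffer cell gene, was the 1 called without fenofibrate, lower in B2D. In the second experiment Serpina1a was called lower, and Tat, Lyve1 and Retnlg higher, in B2D+FF. The part of these markers in the results below was not tested.

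Without fenofibrate, 3 of the Akr1c genes were called lower in B2D, and no aldehyde dehydrogenase was called. Of the 34 members, 23 passed the filter on low values. Akr1c6, Akr1c19 and Akr1c13 were called lower in B2D and none was called higher, beside 2.7% of all 11574 genes tested called, 1.94% lower and 0.769% higher. A further 7 members had an unadjusted p under 0.05 in the lower direction, 10 in all, against 10.1% of all genes, and 0 in the higher direction, against 8.24%. With limma voom on recovered reads the called members were the same 3. The fitted difference was below 0 in 21 of the 23 members and above 0 in Aldh3a2 and Aldh5a1, where 50.2% of all genes tested were below 0. The median member differed by -0.31, and the median of all genes tested was -0.0013. After quantile normalization 18 members were below 0, with a median of -0.19.

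By family, the 6 tested Akr1c genes were all below 0 with a median of -0.61. The 5 tested other Akr genes were all below 0 with a median of -0.22, and 0 of them were called by limma, with 2 at an unadjusted p under 0.05. Of the 12 tested Aldh genes, 10 were below 0 with a median of -0.22, and 0 were called by limma, with 4 at an unadjusted p under 0.05 and a smallest adjusted p of 0.0764. Every B2D mouse lay below every Ctrl mouse for 4 members (Akr1c6, Akr1c19, Aldh7a1 and Aldh3b1) and above for 0, beside 2.89% and 2.08% of all genes tested. A single gene whose groups do not overlap has a two-sided exact permutation p of 0.00794 with 5 mice against 5, and 0.0286 with 4 against 4, the smallest these designs allow.

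**Figure D1:**
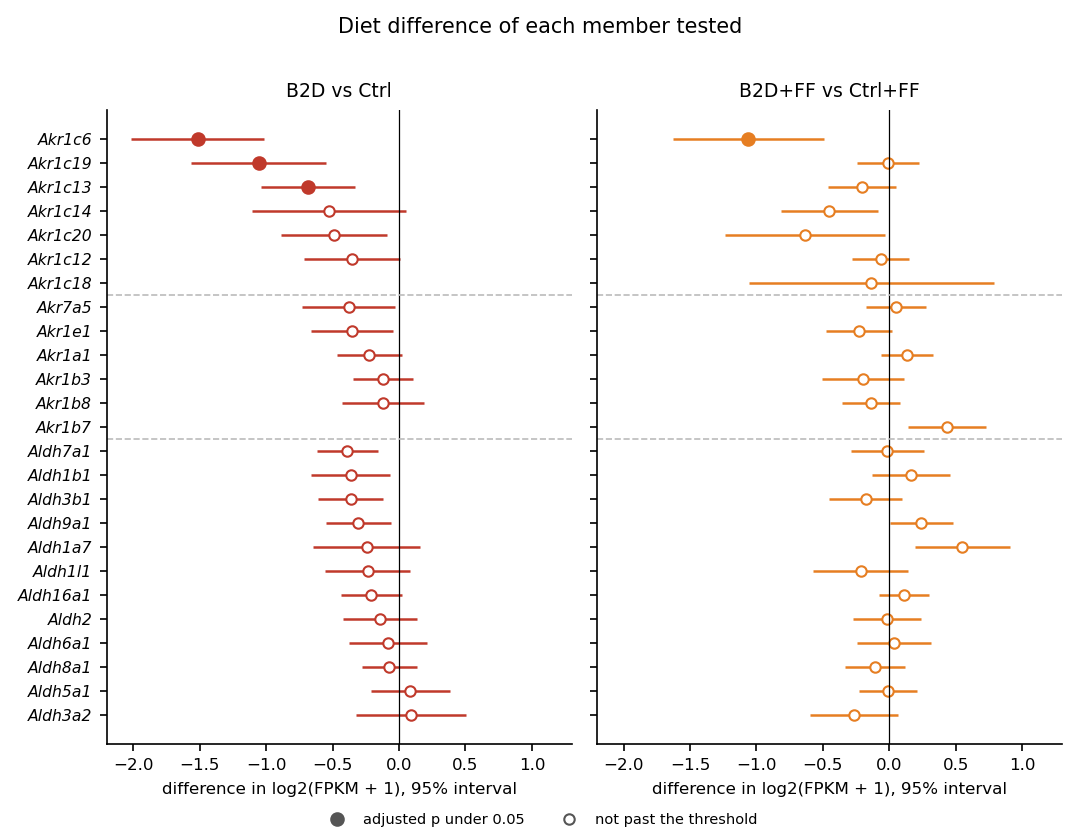
Difference between diets of each member tested, on the log2(FPKM + 1) scale with 95% intervals from limma, without fenofibrate on the left and with it on the right. Dashed lines part the Akr1c genes, the other Akr genes and the Aldh genes, and filled points mark Akr1c6, Akr1c19 and Akr1c13 on the left and Akr1c6 on the right as the members with an adjusted p under 0.05.

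The Akr1c genes, several of which encode hydroxysteroid dehydrogenases, lie in a row on chromosome 13 (GRCm38, from 4049011 to 4586541), next to Akr1e1, which reduces 1,5-anhydrofructose. Their coding sequences have a length of 972 bases each and are close: the 28 pairs were 71.3% to 96.2% identical, with a median of 74.3%. Akr1c12 and Akr1c13 formed the closest pair at 96.2%, followed by Akr1c6 and Akr1c20 at 92.3%. Identical stretches of 50 bases made up 37.1% of the windows along the coding sequence of Akr1c12 and Akr1c13, each shared with the other, so the counting could split reads between them and their values are uncertain. Akr1c6 and Akr1c20 shared 3.03% of such windows, and Akr1c19 and Akr1c14 shared 0% with any other transcript. Akr1c14 overlaps a pseudogene on the same strand.

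Promoter sequences (RefSeq, build GRCm38.p6, 250 bases before to 50 after the annotated start) are shown for the 2 near-copies and for the member that differed most between diets. Those of Akr1c12 (chr13:4279350-4279649, minus strand) and Akr1c13 (chr13:4190937-4191236, plus strand) were 93.4% identical, and the other 20 pairs of Akr1c promoters 45.4% to 58.8%. In this pair capitals mark the 16 bases of each that differ from, or have no partner in, the other:
Akr1c12: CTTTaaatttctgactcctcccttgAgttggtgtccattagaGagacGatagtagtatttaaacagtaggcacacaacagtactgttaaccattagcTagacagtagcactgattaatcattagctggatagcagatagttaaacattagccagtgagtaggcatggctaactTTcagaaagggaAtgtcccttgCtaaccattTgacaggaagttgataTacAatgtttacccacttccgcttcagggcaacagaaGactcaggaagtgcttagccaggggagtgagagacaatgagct
Akr1c13: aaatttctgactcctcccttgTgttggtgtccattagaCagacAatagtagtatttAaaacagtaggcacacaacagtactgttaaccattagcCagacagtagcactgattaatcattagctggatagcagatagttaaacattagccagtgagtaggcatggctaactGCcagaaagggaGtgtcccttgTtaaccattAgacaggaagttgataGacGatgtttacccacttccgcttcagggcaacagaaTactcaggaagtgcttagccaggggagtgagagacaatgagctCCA
In the promoter of Akr1c6 (chr13:4434093-4434392, plus strand) capitals mark the TATAAA found on the plus strand, 164 bases before the start:
Akr1c6: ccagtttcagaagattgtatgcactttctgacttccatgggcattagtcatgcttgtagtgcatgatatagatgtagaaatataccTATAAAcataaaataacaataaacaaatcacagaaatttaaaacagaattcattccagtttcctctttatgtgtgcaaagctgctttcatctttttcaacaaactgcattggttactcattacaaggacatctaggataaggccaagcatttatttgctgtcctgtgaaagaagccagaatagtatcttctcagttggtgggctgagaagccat
The 4 motifs were searched on both strands in the promoter entries of 26 of the 34 members, without allowing for overlap between motifs. The other members were not searched, whether or not they have a promoter entry. TATAAA, the TATA box letters, was in 3 of the 26 members and in 13.6% of 32851 promoter entries. A member was counted once if any of its entries held the letters. TTCNNNGAA, the letters of a STAT5 site, was in 3 and in 8.3% of all. TGACNNNGC, the core of an antioxidant response element, was in 4 and in 12.4% of all. AGGTCA repeated after 1 base, the direct repeat of the kind that PPARα binds, was in 0 and in 0.0396% of all, which says only that these letters are not in these windows.

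Akr1c6, a hydroxysteroid 17β-dehydrogenase, lies at chr13:4434306-4457877 and had the highest mean FPKM of all 34 members in Ctrl. The Ctrl mice had 358, 468, 270, 547 and 437 FPKM (mean 416 ± 106, SD, n = 5), from 10809 to 22058 reads. The B2D mice had 143, 90.0, 172, 125 and 200 FPKM (mean 146 ± 42.2, SD, n = 5). No B2D mouse reached the lowest Ctrl mouse, and the Ctrl mean was 2.85 times the B2D mean. The difference was -1.51 (SE 0.230, limma adjusted p = 0.00734) and stayed called with each of the 10 libraries left out in turn, with adjusted p between 0.00446 and 0.0302. In B2D, Akr1c6 held the third place among the members, behind Aldh2 and Aldh3a2. Its part of the summed FPKM of the Akr1c cluster was 59.1% to 65.9% in Ctrl and 42.5% to 49.7% in B2D, without overlap. The sum itself, which includes Akr1c6, was 444 to 829 FPKM in Ctrl and 210.5 to 401 FPKM in B2D, also without overlap. Among the other Akr1c genes only Akr1c19 had groups without overlap.

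Akr1c19 had 13.8, 22.0, 14.3, 18.3 and 21.6 FPKM in Ctrl (mean 18 ± 3.89, SD, n = 5). In B2D it had 8.12, 4.28, 10.9, 6.75 and 12.1 FPKM (mean 8.44 ± 3.16, SD, n = 5). The highest B2D mouse stayed below the lowest Ctrl mouse. The difference was -1.06 (SE 0.232, limma adjusted p = 0.0364). The call was lost without Ctrl 1, 2, 4 or 5 or B2D 1, 2 or 4, with limma adjusted p of 0.0541, 0.10, 0.0939, 0.0700, 0.0542, 0.0513 and 0.0865 in that order.

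Akr1c13 had 50.8, 79.5, 48.2, 68.3 and 68.7 FPKM in Ctrl (mean 63.1 ± 13.3, SD, n = 5). In B2D it had 32.6, 35.1, 35.6, 39.3 and 50.4 FPKM (mean 38.6 ± 7.02, SD, n = 5). B2D 5 lay above Ctrl 3, so the groups overlapped. The difference was -0.69 (SE 0.161, limma adjusted p = 0.0445). Only without Ctrl 3 or B2D 5 was the call kept, and with each of the other 8 libraries left out the limma adjusted p lay between 0.0581 (without Ctrl 1) and 0.126 (without Ctrl 4). Without Ctrl 2 it was 0.116, without Ctrl 5 0.0845, and without B2D 1, 2, 3 or 4 it was 0.0769, 0.0919, 0.0791 and 0.0886. Its near-copy Akr1c12 had means of 53.4 FPKM in Ctrl and 41.6 FPKM in B2D, a difference of -0.35 (adjusted p = 0.285 by limma).

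**Figure D2:**
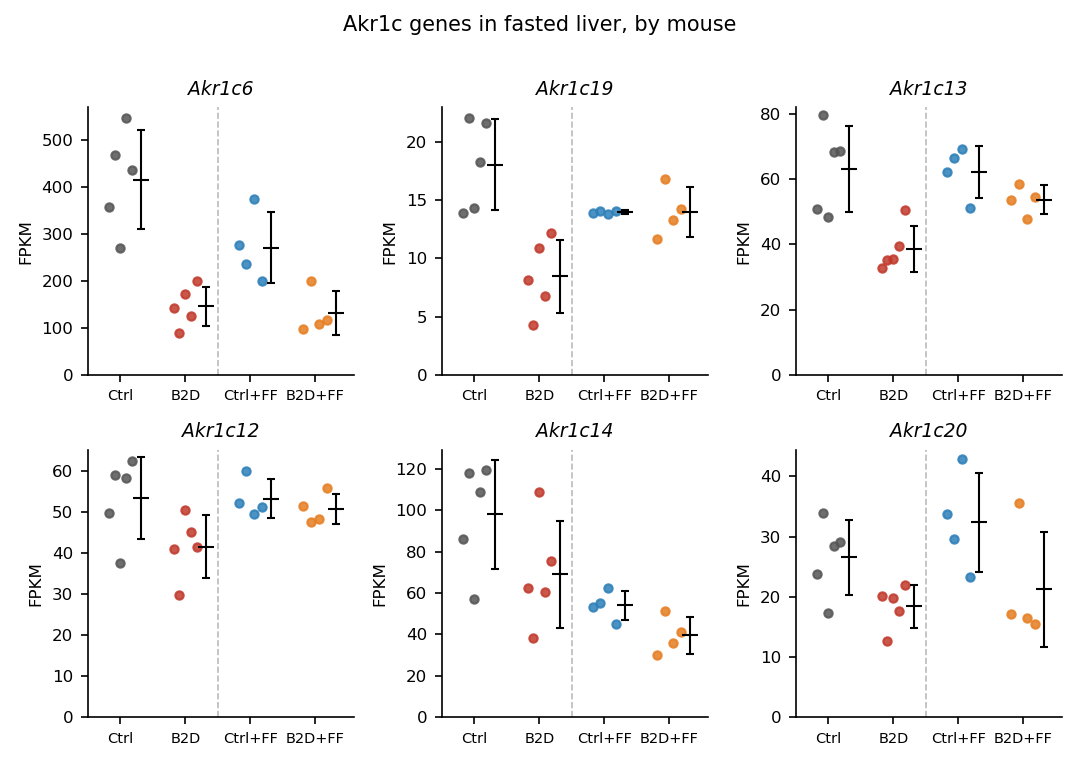
FPKM of 6 Akr1c genes in each mouse by group, with the mean and SD in black beside the points, and with the experiments parted by a dashed line because their tables were scaled apart. Akr1c6 is below every Ctrl mouse in all 5 B2D mice, and Akr1c19 is lower in B2D but has a mean of 14.0 in both groups with fenofibrate.

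Akr1c14, the mouse 3α-hydroxysteroid dehydrogenase, had 57.3 to 119 FPKM in Ctrl and 38.5 to 109 FPKM in B2D, a difference of -0.53 (adjusted p = 0.315 by limma). Akr1c20 had 17.4 to 34.0 FPKM in Ctrl and 12.7 to 22.0 FPKM in B2D, a difference of -0.49 (adjusted p = 0.182 by limma). Both pairs of groups overlapped. Akr1c18, the 20α-hydroxysteroid dehydrogenase that inactivates progesterone, and Akr1c21, a 17α-hydroxysteroid dehydrogenase, were below the filter, at no more than 0.429 and 0.262 FPKM in any of the 10 mice and from 0 to 9 and 0 to 7 reads.

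Along chromosome 13 the difference was largest in Akr1c6 in both experiments. Its neighbour on one side, Akr1c12, differed by -0.35 and its neighbour on the other, Akr1c20, by -0.49 without fenofibrate.

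**Figure D3:**
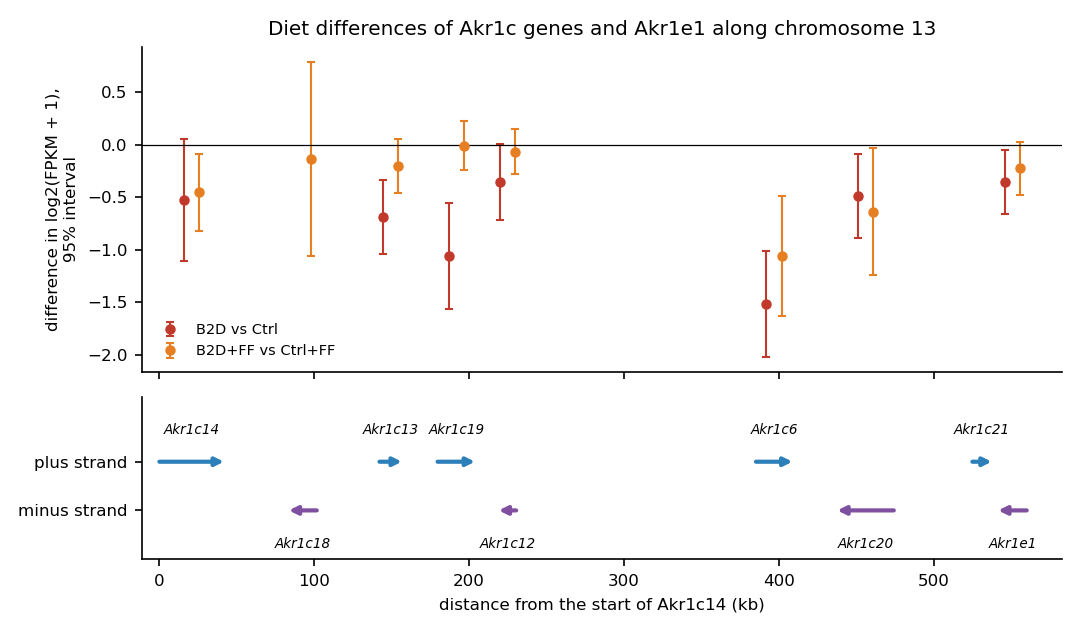
Position of the Akr1c genes and Akr1e1 as distance in kb from the start of Akr1c14, with arrows for the strand (lower panel), and the diet difference of each tested gene with its 95% interval on the log2(FPKM + 1) scale (upper panel, points shifted sideways by experiment). Akr1c6 has the lowest value in both experiments, -1.51 and -1.06, and Akr1c19 is at -1.06 without fenofibrate and -0.0096 with it.

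Among the other aldo-keto reductases, Akr1a1, the aldehyde reductase that also makes gulonate, led with 96.8 to 118 FPKM in Ctrl and 80.3 to 109 FPKM in B2D. Its part of the summed FPKM of these 8 genes in 5 mice each had a mean of 58.7% with an SD of 3.65 for Ctrl, and 61.0% with an SD of 2.29 for B2D. Its difference was -0.22 (limma adjusted p = 0.308). Akr7a5, a succinic semialdehyde reductase, differed by -0.38 and Akr1e1 by -0.35, with limma adjusted p of 0.230 and 0.205. Akr1b3, the aldose reductase of the polyol pathway, and Akr1b8 both differed by -0.12, with 95% intervals from -0.35 to 0.10 and from -0.43 to 0.19. Akr1b3 was low at 0.369 to 0.901 FPKM, and 88.9% of its coding windows were shared with 4 other genes, so its level is uncertain. The Akr1b genes lie together on chromosome 6. Akr1b7 and Akr1b10, also reductases of reactive aldehydes, and Akr1cl were below the filter, and Akr1cl had reads in 1 Ctrl and 1 B2D mouse only.

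Aldh2, the mitochondrial enzyme that oxidizes acetaldehyde, had the second highest mean of the members in Ctrl and the highest in B2D. The Ctrl mice had 421, 349, 326, 399.9 and 423 FPKM (mean 384 ± 43.8, SD, n = 5), and the B2D mice 416, 317, 345, 378 and 287 FPKM (mean 349 ± 50.6, SD, n = 5). The groups overlapped, with a difference of -0.14 (95% interval -0.42 to 0.14, limma adjusted p = 0.585), which turned to 0.072 after quantile normalization. Aldh2 made up 34.0% ± 2.31 (SD, n = 5) of the summed Aldh FPKM on the control diet, and 34.2% ± 2.97 (SD, n = 5) on the deficient one.

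Aldh3a2, the microsomal fatty aldehyde dehydrogenase, had 162, 136, 114, 148 and 234 FPKM in Ctrl (mean 159 ± 45.6, SD, n = 5). In B2D it had 140.1, 160.4, 221, 170 and 141 FPKM (mean 167 ± 33.3, SD, n = 5). The difference was 0.091 (95% interval -0.32 to 0.50, limma adjusted p = 0.831), with the groups interleaved. Aldh1l1, which oxidizes 10-formyltetrahydrofolate, had 128, 123, 152, 116 and 134 FPKM in Ctrl (mean 131 ± 13.9, SD, n = 5) and 147, 88.5, 91.3, 122 and 112 FPKM in B2D (mean 112 ± 24.2, SD, n = 5). The B2D mice spread over a wider range than the Ctrl mice, and the difference was -0.24 (limma adjusted p = 0.408).

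Aldh9a1, which makes the aldehyde step of carnitine synthesis, had 116, 128, 126, 129 and 109 FPKM in Ctrl (mean 122 ± 8.49, SD, n = 5). In B2D it had 82.0, 108, 88.3, 113 and 103 FPKM (mean 98.8 ± 13.2, SD, n = 5). Only B2D 4 lay above the lowest Ctrl mouse. The difference was -0.31 (SE 0.113, limma adjusted p = 0.178).

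Aldh7a1, which oxidizes the semialdehyde of α-aminoadipate in lysine breakdown, had 85.3, 90.3, 84.3, 89.7 and 94.1 FPKM in Ctrl (mean 88.8 ± 3.99, SD, n = 5). In B2D it had 77.0, 54.8, 68.3, 72.1 and 67.1 FPKM (mean 67.8 ± 8.26, SD, n = 5). The groups did not overlap, and the difference of -0.39 (SE 0.106) had a limma adjusted p of 0.0764. Over the 8 other settings the limma adjusted p lay between 0.0317, in a fit of all 4 groups together, and 0.186, and no other setting passed the threshold. With each library left out it lay between 0.0579 and 0.180, so none of the 10 fits called it. Aldh3b1, an enzyme for lipid-derived aldehydes, was near the filter at 1.05, 0.859, 0.919, 0.779 and 1.2 FPKM in Ctrl, from 28 to 47 reads. In B2D it had 0.637, 0.437, 0.243, 0.769 and 0.561 FPKM, from 8 to 28 reads. The highest B2D mouse and the lowest Ctrl mouse were 0.769 and 0.779 FPKM, and the difference was -0.36 (limma adjusted p = 0.115). Aldh3b1 shared 13.2% of its coding windows with Aldh3b2 and Aldh3b3.

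**Figure D4:**
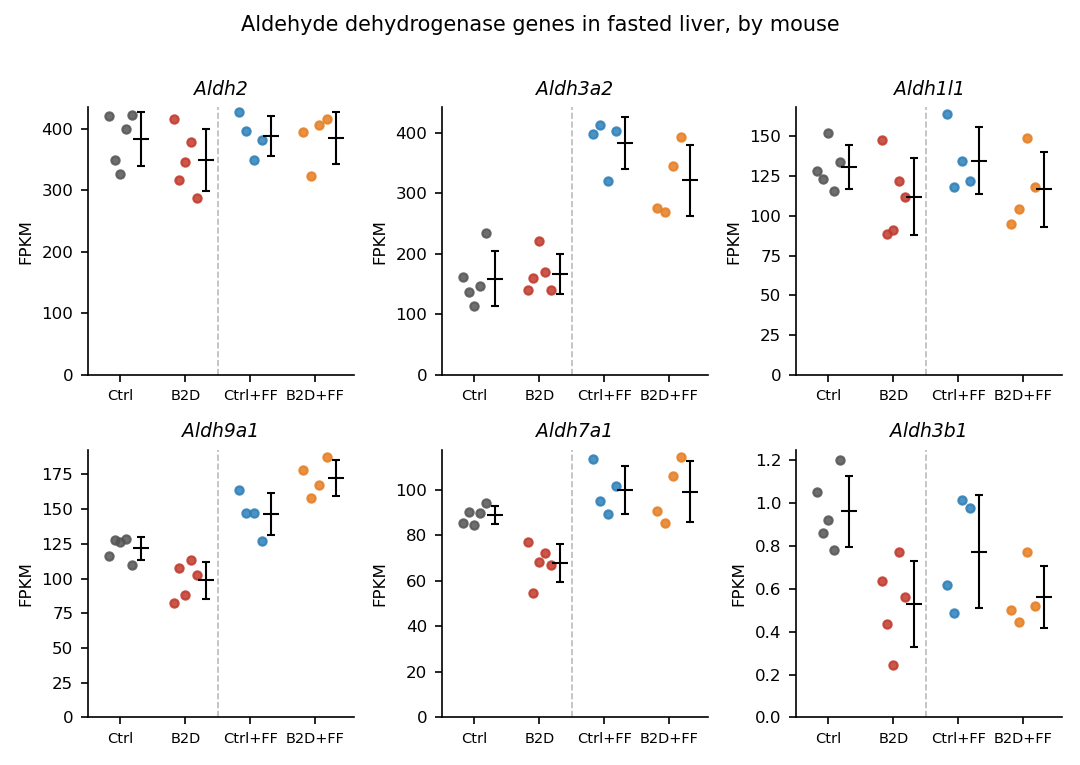
FPKM of 6 aldehyde dehydrogenase genes in each mouse by group, with the mean and SD in black beside the points and the separately scaled experiments parted by a dashed line. Aldh7a1 and Aldh3b1 do not overlap between Ctrl and B2D, and the other 4 genes do.

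The other 6 tested Aldh genes differed by -0.37 to 0.085 without fenofibrate, with limma adjusted p of 0.186 or more. The lowest was Aldh1b1, a mitochondrial acetaldehyde dehydrogenase, and the highest Aldh5a1, the succinic semialdehyde dehydrogenase. Aldh6a1, the methylmalonate semialdehyde dehydrogenase of valine breakdown, differed by -0.081 and Aldh8a1, of the kynurenine pathway, by -0.075. After quantile normalization these 2 were at 0.033 and 0.053. Aldh16a1 differed by -0.21. Aldh1a7, a rodent relative of the retinal dehydrogenase Aldh1a1 that shares 10.4% of its coding windows with it, differed by -0.24. The retinal dehydrogenases Aldh1a2 and Aldh1a3, the mitochondrial formyltetrahydrofolate dehydrogenase Aldh1l2, Aldh3a1, Aldh3b2 and Aldh3b3 were below the filter, with at most 0.305 FPKM in any of the 10 mice.

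With fenofibrate, Akr1c6 was again lower on the deficient diet, and no other member was called. Of 25 tested members, 17 were below 0 and 8 above, where 47.2% of all 11878 genes tested were below 0. The median was -0.066 for the members and 0.013 for all genes tested. Of all genes tested 4.45% were called, 2.21% lower and 2.24% higher. At an unadjusted p under 0.05 were 3 members lower and 3 higher, against 9.93% and 11.3% of all genes. The groups of 0 members were apart in either direction, where 6.44% of all genes were lower and 7.82% higher without overlap. limma voom also called Akr1c6 alone among the members. The 7 tested Akr1c genes were all below 0, with a median of -0.20, and the direction of Akr1c19 turned when B2D+FF 1 or B2D+FF 3 was left out and that of Akr1c18 when Ctrl+FF 1 or B2D+FF 3 was left out.

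Akr1c6 had 276, 235, 374 and 199 FPKM in Ctrl+FF (mean 271 ± 75.3, SD, n = 4). In B2D+FF it had 97.6, 201, 109 and 117 FPKM (mean 131 ± 47.2, SD, n = 4). B2D+FF 2 lay just above Ctrl+FF 4, and the other B2D+FF mice lay below the control mice. The difference was -1.06 (SE 0.252, limma adjusted p = 0.0487), with a Ctrl+FF mean 2.06 times the B2D+FF mean. The call was kept without Ctrl+FF 4 (0.0481) and without B2D+FF 2 (0.0143). Without Ctrl+FF 1, 2 or 3 the limma adjusted p was 0.125, 0.102 and 0.105, and without B2D+FF 1, 3 or 4 it was 0.109, 0.0853 and 0.108. It was 0.122 without a filter on low values and 0.0593 after quantile normalization. Its part of the summed Akr1c FPKM was 50.8% to 60.9% in Ctrl+FF and 36.9% to 48.0% in B2D+FF, without overlap. The sum itself was 387 to 614 FPKM in Ctrl+FF and 264 to 419 FPKM in B2D+FF, with overlap.

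Akr1c19 had 13.8, 14.1, 13.8 and 14.1 FPKM in Ctrl+FF and 11.6, 16.8, 13.3 and 14.2 FPKM in B2D+FF, and both means were 14.0 FPKM. The control mice lay within the range of the deficient mice, and the difference was -0.0096 (95% interval -0.24 to 0.22, limma adjusted p = 0.973). Akr1c13 had 62.0, 66.5, 69.2 and 51.1 FPKM in Ctrl+FF and 53.7, 58.6, 47.8 and 54.4 FPKM in B2D+FF. The groups overlapped and the difference was -0.20 (95% interval -0.46 to 0.053, limma adjusted p = 0.343). Akr1c20 differed by -0.64 (limma adjusted p = 0.212). Its B2D+FF mice had 17.2, 35.5, 16.6 and 15.6 FPKM and its Ctrl+FF mice 23.3 to 42.8 FPKM. B2D+FF 2 stood apart from the other 3, and without it the difference was -0.90 (limma adjusted p = 0.0327). With each of the other 7 libraries left out, and under the 8 other settings, it was not past the threshold, with limma adjusted p up to 0.378. Akr1c14 differed by -0.45 (adjusted p = 0.150 by limma) and Akr1c12 by -0.066. Akr1c18 passed the filter in this table, at 1.91 to 5.45 FPKM in Ctrl+FF and 1.2 to 7.94 FPKM in B2D+FF.

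Aldh2 had 427, 396, 349 and 382 FPKM in Ctrl+FF and 395, 323, 407 and 416 FPKM in B2D+FF, a difference of -0.016 (95% interval -0.27 to 0.24). Aldh3a2 had 399, 413, 320 and 404 FPKM in Ctrl+FF and 276, 270.0, 346 and 393 FPKM in B2D+FF. The groups overlapped and the difference was -0.27 (limma adjusted p = 0.341). In both groups Aldh2 and Aldh3a2 held the first and the second place among the members. Aldh1l1 had 164, 118, 135 and 122 FPKM in Ctrl+FF and 95.2, 104, 149 and 118 FPKM in B2D+FF, a difference of -0.21 (limma adjusted p = 0.475) with overlap.

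Aldh9a1 had 164, 147, 147 and 127 FPKM in Ctrl+FF and 178, 158, 167 and 187 FPKM in B2D+FF. All but 1 of the deficient mice lay above every control mouse, and the difference was 0.24 (limma adjusted p = 0.232). Aldh7a1 had 113, 94.8, 89.3 and 102 FPKM in Ctrl+FF and 90.7, 85.2, 106 and 114 FPKM in B2D+FF, a difference of -0.016 (95% interval -0.29 to 0.26). Aldh3b1 had 0.618, 0.486, 1.01 and 0.976 FPKM in Ctrl+FF and 0.501, 0.446, 0.773 and 0.520 FPKM in B2D+FF, a difference of -0.18 (limma adjusted p = 0.445). Both pairs of groups overlapped. Aldh1a7 was at 68.6 to 88.9 FPKM in Ctrl+FF and 88.5 to 152 FPKM in B2D+FF, a difference of 0.55 (limma adjusted p = 0.0848). Without B2D+FF 3, the lowest of its group, the limma adjusted p was 0.0355, and with each of the other 7 libraries left out it was not past the threshold, at up to 0.183. None of the 8 other settings called it, at 0.0560 to 0.173. Akr1b7, at 0.190 to 0.764 FPKM in Ctrl+FF and 0.754 to 1.19 FPKM in B2D+FF, differed by 0.43 (limma adjusted p = 0.0937). Its reads were 4 to 17 in Ctrl+FF and 18 to 31 in B2D+FF. The Ctrl+FF mean of 0.425 FPKM was under the filter of 0.5 FPKM, so Akr1b7 was tested only through its B2D+FF level and is uncertain.

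The remaining tested members differed by -0.23 (Akr1e1) to 0.16 (Aldh1b1) with fenofibrate, with limma adjusted p of 0.280 or more. Akr1b10, Akr1c21, Akr1cl, Aldh1a2, Aldh1a3, Aldh1l2, Aldh3a1, Aldh3b2 and Aldh3b3 were below the filter in this table too. Akr1cl had 0 reads in all 8 mice, for which 3 reads per library is taken as the limit that a count of 0 allows.

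A contrast over 18 libraries tested whether the diet difference itself changed from 1 experiment to the other, in which fenofibrate, time on the diet and the separately scaled tables cannot be told apart. Of the 23 members tested, 0 were called by limma, beside 0.145% of all 11031 genes tested, 0.0635% lower and 0.0816% higher. By limma voom 0 were called as well. With array weights 1 was called, Akr1c19, with a limma adjusted p of 0.0465. At an unadjusted p under 0.05 the difference was higher in the second experiment for 8 members and lower for 0, beside 6.79% and 5.11% of all genes. For Akr1c19 the contrast was 1.05 (SE 0.293, limma adjusted p = 0.155), and for Aldh9a1 it was 0.55 (SE 0.152, limma adjusted p = 0.154). The other 6 were Aldh1a7 at 0.79, Aldh1b1 at 0.53, Akr1c13 at 0.48, Aldh7a1 at 0.38, Akr1a1 at 0.36 and Aldh16a1 at 0.32, with limma adjusted p between 0.242 and 0.380. For Akr1c6 the contrast was 0.45 (95% interval -0.31 to 1.22, limma adjusted p = 0.636).

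Enzymes of neighbouring pathways were counted from 3 lists. Of 21 tested genes for other aldehyde and alcohol enzymes, 19 were below 0 without fenofibrate, against 50.2% of all genes tested, and 3 were called lower, against 1.94%: Adh4, an alcohol dehydrogenase, at -1.22, Sord, the sorbitol dehydrogenase, at -0.82, and Hagh, a glyoxalase, at -0.70 (limma adjusted p = 0.00494, 0.0290 and 0.0327). None was called higher, and 11 lower and 1 higher had an unadjusted p under 0.05, against 10.1% and 8.24% of all genes. With fenofibrate, Adh4 was lower by -0.42 and the carbonyl reductases Cbr1 and Cbr3 were higher by 1.67 and 1.51 among 22 tested genes (limma adjusted p = 0.0469, 0.00119 and 0.0374), against 2.21% of all genes called lower and 2.24% higher. Cbr3 had a mean of 0.343 FPKM in Ctrl+FF, under the filter of 0.5 FPKM, and 3.30 ± 2.36 FPKM (SD, n = 4) in B2D+FF. It passed the filter only through B2D+FF, so its call is uncertain. Of these 22 genes 15 were below 0 and 7 above, where 47.2% of all genes tested were below 0. Cbr1, which also reduces carbonyls with NADPH, was called in the contrast as well, at 1.17 (limma adjusted p = 0.0364).

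Of 15 tested genes for other steroid dehydrogenases and reductases, 4 were called lower in B2D: the 3β-hydroxysteroid dehydrogenases Hsd3b5 (-3.43), Hsd3b2 (-1.70) and Hsd3b3 (-1.43), and the steroid 5α-reductase Srd5a1 (-1.65), with limma adjusted p between 0.00484 and 0.00940. Of all genes tested 1.94% were called lower. In this list 9 genes were below 0 and 6 above, with a median of -0.26, where 50.2% of all genes tested were below 0. At an unadjusted p under 0.05 were 6 lower and 2 higher, against 10.1% and 8.24% of all genes. The Hsd3b genes are near-copies whose reads the counting could split, so they are uncertain. Hsd3b5 varied widely in Ctrl, with a mean of 18.6 ± 13.7 FPKM (SD, n = 5), and had a mean of 0.379 FPKM in B2D. It was not among the genes tested with fenofibrate. With fenofibrate Hsd3b2 (-1.19) and Hsd3b3 (-0.79) were called lower among 14 tested, with limma adjusted p of 0.00391 and 0.0403, against 2.21% of all genes. Of these 14 genes 6 were below 0 and 8 above, with a median of 0.10, where 47.2% of all genes tested were below 0. The 16 tested folate genes, which share their pathway with Aldh1l1, had 0 called by limma without fenofibrate, against 2.7% of all genes. In that list 1 lower and 1 higher had an unadjusted p under 0.05, against 10.1% and 8.24%. With fenofibrate Gldc, of the glycine cleavage system, and Mthfd1l, a mitochondrial formate synthetase, were higher by 0.58 and 0.64 (limma adjusted p = 0.00989 and 0.0245), 2 of 16 tested against 2.24% of all genes.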

How the data were processed

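RNA of the fasted liver of 18 mice was sequenced, with 1 library per mouse. The authors aligned reads with STAR to mm10, counted them per gene with featureCounts and used DESeq2, per the labels and the methods, and deposited 1 table of FPKM values per experiment with gene lengths and GRCm38 coordinates. Whether counting used strand is not given in the sources used here. In every library each FPKM multiplied by its gene's length was a whole multiple of 1 step (tolerance 0.01), which gave the reads. Within each table the authors' scaling equalled median-of-ratios scaling, so each table was fitted alone.

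Genes with a mean of at least 0.5 FPKM entered limma 3.58.1 (R 4.3.3), a trended linear model per gene on log2(FPKM + 1), with Benjamini-Hochberg adjustment over all genes tested (11574 without and 11878 with fenofibrate, and 11031 in the contrast of the experiments). Tests were two-sided. The members, lists and rules were chosen with earlier results of these data known. Values per mouse are given for members called, members whose groups do not overlap and the 5 members with the highest mean in Ctrl; the rest are given by ranges and counts, and up to 5 called genes per list. Akr1c20, Aldh1a7 and Akr1b7 are given in more detail with fenofibrate because of their values. The tests were repeated with a pseudocount of 0.1, without a filter, with a mean of at least 5 FPKM, upper-quartile rescaling (75th percentile), quantile normalization, array weights, voom on recovered reads, all 4 groups in 1 fit, and each library left out in turn. In data simulated for the 3 comparisons, 200 genes with a mean of at least 1 FPKM were changed by 1 on the log2(FPKM + 1) scale, with independent noise per gene. There limma recovered 175, 183 and 166 of the 200, with 8, 6 and 9 false calls among 11570, 11888 and 10979 genes. Recovery of smaller differences was not tested. Coding sequences came from the reference transcripts and promoters from RefSeq (GRCm38.p6), compared with Biopython 1.88. Depths of 15320729 to 21898502 reads limit the members below the filter.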

Additional observations from a re-analysis of the deposited data

Results flagged for a closer look

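For each member tested, 96 groups in all, the highest or lowest mouse was set against the others of its group, and 7 stood far apart by Dixon's criterion, where chance alone gives about 1 in 20. In B2D, Aldh16a1 was 10.5 FPKM in B2D 1 and 7.14 to 7.64 FPKM in the other mice. In Ctrl+FF, Akr1b3 was 1.11 FPKM in mouse 1 against 0.442 to 0.535 FPKM, and Akr1b8 was 0.709 FPKM in mouse 4 against 1.02 to 1.07 FPKM. Also in Ctrl+FF, Aldh1b1 was 11.6 FPKM in mouse 2 against 13.4 to 13.7 FPKM, and Aldh3a2 was 320 FPKM in mouse 3 against 399 to 413 FPKM. In B2D+FF, mouse 2 was high for 2 Akr1c genes, with Akr1c18 at 7.94 FPKM against 1.2 to 2.09 FPKM and Akr1c20 at 35.5 FPKM against 15.6 to 17.2 FPKM. The same mouse had the highest Akr1c6 and Akr1c19 levels of its group, 201 and 16.8 FPKM.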

How the results depend on the processing

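Without a filter on low values, 1 member was called without fenofibrate (Akr1c6) and 0 with it, among 67 and 272 genes in place of 313 and 529. Under quantile normalization 0 members were called with fenofibrate, and under array weights 2 (Akr1c6 and Akr1b7), with 1 (Akr1c19) in the contrast. Akr1b7 passed the filter only through its B2D+FF level. Leaving out 1 library gave 1 to 3 called members without fenofibrate, 0 to 2 with it and 0 in the contrast, over 98 to 332, 175 to 596 and 8 to 44 called genes. The 4 groups in 1 fit called 777 genes without fenofibrate, array weights 885 with it and 112 in place of 16 in the contrast, and a mean of at least 5 FPKM called 6 there. Upper-quartile rescaling moved the calls with fenofibrate from 263 lower and 266 higher to 366 and 223. Akr1c13 lost its call with no filter, upper-quartile rescaling and quantile normalization (adjusted p = 0.122, 0.0579 and 0.0681), and Akr1c19 with no filter (0.120). The cause was not tested.

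Without fenofibrate, quantile normalization turned Aldh2 (0.072), Aldh6a1 (0.033) and Aldh8a1 (0.053) above 0. With fenofibrate, upper-quartile rescaling turned Akr7a5 (-0.013) and Aldh6a1 (-0.026), quantile normalization Aldh6a1 (-0.011) and array weights Aldh7a1 (0.037). With 1 library left out, Aldh3a2 ranged from -0.018 to 0.24 and Aldh6a1 from -0.14 to 0.0046 without fenofibrate. With it the ranges were -0.57 to 0.11 for Akr1c18, -0.095 to 0.068 for Akr1c19, -0.014 to 0.10 for Akr7a5, -0.066 to 0.065 for Aldh2, -0.063 to 0.054 for Aldh5a1, -0.046 to 0.11 for Aldh6a1 and -0.088 to 0.053 for Aldh7a1. The other diet differences of the members tested kept their direction under every alternative run, and the depth limits the members with few reads. No paired analysis was possible because the groups share no animals or replicate numbers in the labels.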
